A study of Homo sapiens with 4 samples.

Results

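Laminin-332 and the hemidesmosome are represented here by 7 genes of the 67008 in the count table: LAMA3 and LAMB3, which encode chains of laminin-332, ITGA6 and ITGB4, which encode the integrin alpha6beta4 receptor, COL17A1, and the plakins DST and PLEC. The genes were chosen by their place in this structure, with the differences between the same 4 libraries already known, so the comparison of shSTAU1 with Ctrl is given for them as a description and no test is drawn from it. All 7 identifiers were found once in the table, and all 7 passed the filter on low counts that left 14303 genes.

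The libraries were made from virus-infected SAS cells, which derive from a squamous carcinoma of the tongue. Of these, 2 libraries came from cells with an shRNA against luciferase, a gene that human cells lack (Ctrl), and 2 from cells with an shRNA against STAU1, a double-stranded RNA-binding protein (shSTAU1). All cells are labelled wild type and were grown in DMEM with fetal bovine serum, and total RNA was enriched for coding transcripts with an RNA exome kit. The design therefore rests on 1 line, and nothing in the labels says whether replicates were separate cultures. The labels also name a mouse fibroblast line, so the cell type was checked: KRT5 had 108820, 110892, 191041 and 172929 counts in Ctrl replicates 1 and 2 and shSTAU1 replicates 1 and 2, while THY1 had 0 in every library and COL3A1, DCN and LUM had at most 1 count in any. The 8 squamous markers summed to 7512 and 7091 CPM in Ctrl and to 11260 and 8619 CPM in shSTAU1, led by KRT5. The 8 fibroblast markers summed to 17.9 and 22.8 CPM in Ctrl and to 11.1 and 10.2 CPM in shSTAU1, led by COL1A1, which had between 221 and 663 counts. Levels in CPM are counts scaled to 1000000 counts of a library, after TMM scaling, a method that aligns libraries on the bulk of their genes. The 3 endothelial markers summed to between 7.44 and 18.0 CPM, led by VWF with between 110 and 457 counts. CDH5 had between 149 and 230 counts, and PECAM1 no more than 1. The 3 leukocyte markers, led by CD3E, reached at most 0.283 CPM, with CD68 at 0. The squamous sum was higher in shSTAU1, mainly through KRT5, whereas DSG3 was at 58.9% and CDH1 at 82.0% of Ctrl. The fibroblast sum was lower through COL1A1, whereas COL1A2 had 1.19 and 1.68 CPM in Ctrl and 2.15 and 3.62 CPM in shSTAU1. The part of these markers in the differences below was not tested.

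Laminin-332 is a secreted trimer that anchors basal epithelial cells to the basement membrane. It is bound on the cell side by integrin alpha6beta4 and by collagen XVII, a transmembrane collagen. Inside the cell, plectin and the epithelial form of dystonin (BP230) link these receptors to keratin filaments, and the whole assembly is the hemidesmosome. In squamous epithelium, loss of any of several of these proteins causes skin blistering, and in carcinomas laminin-332 is often deposited at the invading edge.

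Sequencing depth was 33009118 and 32206655 counts for Ctrl, against 35180221 and 36301574 for shSTAU1. The targeted gene separated the groups as labelled. STAU1 had 249 and 251 CPM in Ctrl and 41.6 and 41.5 CPM in shSTAU1, which is 16.6% of the control level (log2 fold change -2.59, standard error 0.13, with an edgeR quasi-likelihood adjusted p of 0.00103).

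For all 7 genes, each shSTAU1 library lay below each Ctrl library, a pattern held by 28.0% of all tested genes. In shSTAU1 the level ran from 94.5% of Ctrl in DST to 34.2% in LAMA3, and LAMB3, at 55.7%, was next to LAMA3. Together the 7 genes took 1.58% and 1.63% of all counts in Ctrl and 1.05% and 1.03% in shSTAU1. LAMA3 and LAMB3 had an adjusted p under 0.05 in edgeR's fit across all genes and the other 5 did not. That compares with 1.48% of the 14303 tested genes that were lower past this threshold, 2.60% in either direction and 4.57% lower among the 350 genes with at least the CPM of COL17A1, which had the fewest counts of the 7. The median log2 fold change was -0.55 over the 7 genes, 0.01 over all tested genes and 0.16 over the 350. With the length and GC correction it was -0.36 over the 7 and 0.05 over all tested genes. DESeq2 called 5 of the 7, all lower, which added ITGB4, PLEC and COL17A1, and it called 10.1% of all tested genes. As the genes were chosen with this comparison known, nothing is read from these shares. For one value in a design of 2 against 2, the smallest two-sided p of an exact permutation test is 0.333. The count of 2 became 0 without Ctrl replicate 1 (3 at an unadjusted p under 0.05), where 0.00% of all genes passed. It became 1 (LAMA3) without Ctrl replicate 2, where 0.427% of all genes passed, and 1 (LAMA3) without the filter on low counts, where 0.0443% did. It became 5 without shSTAU1 replicate 1 and 5 without shSTAU1 replicate 2, where 18.5% and 14.5% of all genes passed.

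**Figure D1:**
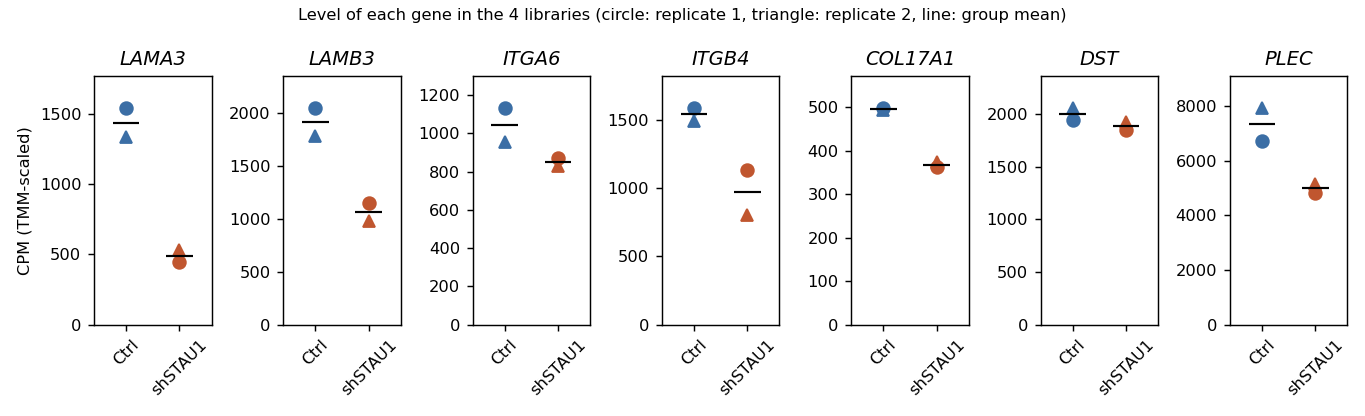
Levels of the 7 genes in CPM (vertical axes from 0, a scale for each gene), with 1 point per library and a line at the mean of each group. Both shSTAU1 points lie below both Ctrl points for every gene, widely for LAMA3 (449 and 535 against 1540 and 1336) and barely for DST.

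LAMA3 (ENSG00000053747), on chromosome 18 of GRCh38 from 23689443 to 23956222 (plus strand), encodes the alpha3 chain, whose end carries the integrin-binding domains of the trimer. It had 1540 and 1336 CPM in Ctrl and 449 and 535 CPM in shSTAU1. Both shSTAU1 libraries were far below both Ctrl libraries, with 1.32 log2 units between the nearest pair, while replicates differed by 0.21 in Ctrl and 0.25 in shSTAU1. The shSTAU1 mean was 34.2% of the Ctrl mean (log2 fold change -1.55, standard error 0.15), and 345 of the 14303 tested genes had a lower fold change.

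LAMB3 (ENSG00000196878), on chromosome 1 from 209614870 to 209652466 (minus strand), encodes the beta3 chain, which is found in laminin-332 and few other laminins. Its level was 2043 and 1786 CPM in Ctrl and 1149 and 983 CPM in shSTAU1, so the groups did not overlap. The mean in shSTAU1 was 55.7% of that in Ctrl (log2 fold change -0.84, standard error 0.14), and the replicates of each group differed by about 0.2 log2 units in the same direction.

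Because these genes encode partners in one trimer, their levels per length were set against each other in each library. The ratio of LAMA3 to LAMB3, each as CPM per kilobase of exon, was 0.241 and 0.239 in Ctrl and 0.125 and 0.174 in shSTAU1. The Ctrl libraries were nearly identical and both shSTAU1 libraries were below them. The alpha3 message was thus lower relative to the beta3 message as well as in CPM. The change was -0.70 on the log2 scale. Annotated transcripts of LAMA3 include a short and a long form with separate starts, and gene counts do not tell them apart.

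AP-1 dimers of JUN and FOS proteins are known regulators of laminin-332 genes. A loose pattern for their sites, TGANTCA with any base at N, was therefore searched in the RefSeq promoter windows of GRCh38.p14. The windows run from 250 bases before to 50 after a start, and the pattern is its own reverse complement. Of the 7 genes, 5 have a window there and 10 windows were searched, while ITGB4 and PLEC have none. One or more copies were found in 1 window each of LAMA3, LAMB3 and DST. Of the 27305 genes with a window, 9.37% had a copy in any of them, as did 7.71% of the 35116 windows. The LAMA3 window alone had 2 copies, as in 0.515% of all windows. Each copy found has C or G at N, while these shares allow any base there. DST, the gene that differed least, is among the genes with a copy. The copies are shown because they set the genes with the largest and the smallest difference side by side, with the motif in capitals and 10 bases on either side, 5′ to 3′ on the strand of the gene.

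LAMA3, copy 125 bases before the RefSeq start, chr18:23872885-23872911: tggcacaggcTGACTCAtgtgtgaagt

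LAMA3, copy 69 bases before the start, chr18:23872941-23872967: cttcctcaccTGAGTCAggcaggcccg

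LAMB3, copy 67 bases before the start of the third of its windows, chr1:209651425-209651451: tcagccactcTGACTCAttcactttgg

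DST, copy 25 bases after the start of the first of its windows, chr6:56954789-56954815: cgctgtctgcTGAGTCAtggcaagcgc

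The LAMA3 window lies at an internal start, and its first copy is 183 kilobases downstream of the start of the gene. GENCODE 29 places both LAMA3 copies in exon 1 of a transcript that begins at base 23872840, upstream of the RefSeq start, in its 5' untranslated part. The copies at LAMB3 and DST lie in no GENCODE 29 exon. These matches are a description of the sequence, and no binding was measured.

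ITGB4 (ENSG00000132470), on chromosome 17 from 75721328 to 75757818 (plus strand), encodes the beta4 subunit of the receptor, whose long cytoplasmic tail binds plectin. It had 1585 and 1496 CPM in Ctrl and 1135 and 804 CPM in shSTAU1. Both shSTAU1 libraries were lower, but they differed from each other by 0.50 log2 units, the widest replicate gap among the 7 genes. The shSTAU1 mean was 63.0% of the Ctrl mean (log2 fold change -0.67, standard error 0.17), and the fold change was -0.93 without shSTAU1 replicate 1 and -0.45 without shSTAU1 replicate 2. Between the libraries numbered 1 the difference was -0.48 for ITGB4 and -0.83 for LAMB3, and between those numbered 2 it was -0.90 and -0.86. The difference between these genes was not tested.

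ITGA6 (ENSG00000091409), on chromosome 2 from 172427354 to 172506282 (plus strand), encodes the alpha6 subunit, which pairs with beta1 as well as beta4. Its values were 1130 and 954 CPM in Ctrl and 873 and 832 CPM in shSTAU1. The groups were 0.13 log2 units apart, less than the 0.24 between the Ctrl replicates. The log2 fold change was -0.29 (standard error 0.13), and it was -0.17 without Ctrl replicate 1 and -0.40 without Ctrl replicate 2. Set against its partner, the ratio of ITGA6 to ITGB4 per length was 0.738 and 0.660 in Ctrl and 0.795 and 1.07 in shSTAU1. Both shSTAU1 ratios were higher, and shSTAU1 replicate 2, where ITGB4 was lowest, was the only library with more ITGA6 than ITGB4 per length.

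COL17A1 (ENSG00000065618), on chromosome 10 from 104031286 to 104085957 (minus strand), encodes collagen XVII (BP180), the transmembrane collagen of the hemidesmosome and a target of autoantibodies in bullous pemphigoid. It had 497 and 494 CPM in Ctrl and 362 and 373 CPM in shSTAU1. Replicates differed by at most 0.05 log2 units, the tightest of the 7 genes, and the groups lay 0.40 apart. The mean in shSTAU1 was 74.2% of that in Ctrl (log2 fold change -0.43, standard error 0.12). Its ratio to ITGB4 per length was 0.300 and 0.316 in Ctrl and 0.305 and 0.444 in shSTAU1, which overlapped between the groups.

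The plakins, which tie the receptors to keratin, had unlike fold changes, and the difference between PLEC and DST was not tested. PLEC (ENSG00000178209), on chromosome 8 from 143915147 to 143976734 (minus strand), encodes plectin, a linker of keratin filaments to integrin beta4. It had 6728 and 7904 CPM in Ctrl and 4826 and 5140 CPM in shSTAU1. Both shSTAU1 libraries were lower than both Ctrl libraries, by 0.39 log2 units at the nearest. The shSTAU1 mean was 68.1% of the Ctrl mean (log2 fold change -0.55, standard error 0.13), and this became -0.34 when the trend of each library with transcript length and GC content was removed.

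DST (ENSG00000151914), on chromosome 6 from 56457987 to 56954628 (minus strand), encodes dystonin, of which the epithelial form BP230 sits in the hemidesmosome while other forms serve neurons and muscle. It had 1940 and 2055 CPM in Ctrl and 1847 and 1930 CPM in shSTAU1. The nearest libraries of the groups were 0.01 log2 units apart, well within the spread between replicates. The log2 fold change was -0.08 (standard error 0.12), and it turned to 0.17 after the length and GC correction. With any single library dropped and no correction, the fold change lay between -0.125 and -0.035. Gene counts do not separate the epithelial form from the others among 35 annotated transcripts. The ratio of DST to PLEC per length was 0.116 and 0.104 in Ctrl and 0.154 and 0.151 in shSTAU1, so dystonin message was higher relative to plectin message in both shSTAU1 libraries, by 0.47 on the log2 scale.

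**Figure D2:**
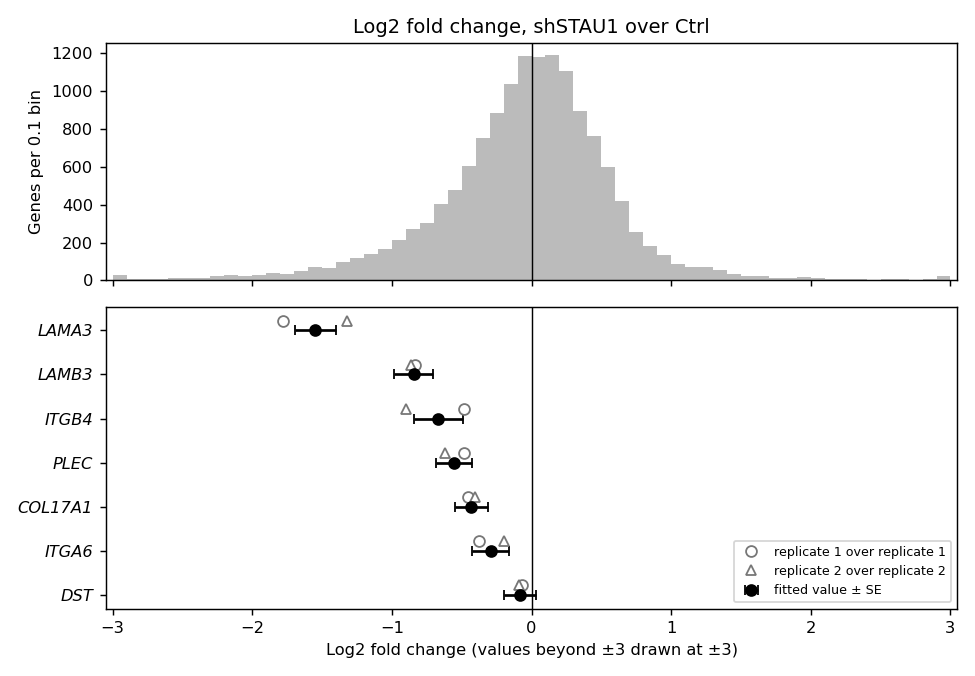
Top, number of genes in each bin of 0.1 of the log2 fold change (shSTAU1 over Ctrl) over the 14303 tested genes. Bottom, the 7 genes on the same axis, with the differences between same-numbered libraries as open symbols and the fitted value with its standard error in black. The fitted values run from LAMA3 at -1.55 to DST at -0.08.

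**Figure D3:**
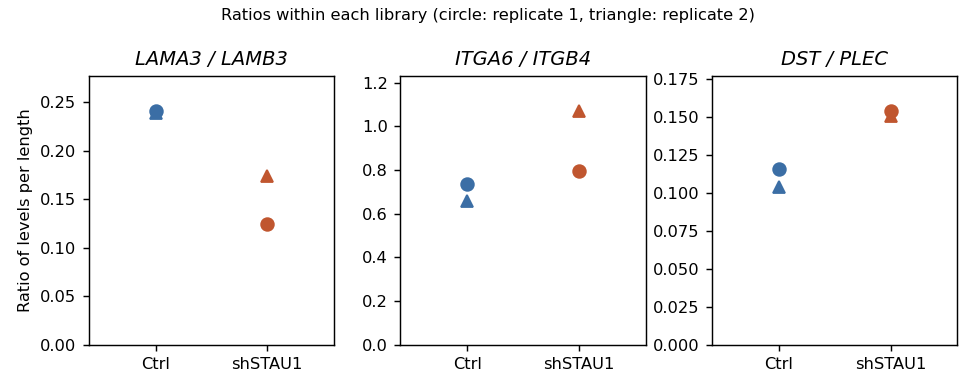
Ratios of levels per length within each library (vertical axes from 0). LAMA3 to LAMB3 was lower in both shSTAU1 libraries (0.125 and 0.174 against 0.241 and 0.239), and DST to PLEC was higher (0.154 and 0.151 against 0.116 and 0.104).

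Levels were ordered across the genes as CPM per kilobase of exon, with the union of the annotated exons as length. Capture by exome probes may weight genes unequally, which was not tested. In Ctrl the means were 431 for PLEC, 408 for LAMB3, 228 for ITGB4, 160 for ITGA6, 97.9 for LAMA3, 70.1 for COL17A1 and 47.2 for DST. PLEC (396 and 465) and LAMB3 (436 and 381) overlapped, and each later gene lay below the one before it in both Ctrl libraries. In shSTAU1 the means were 293 for PLEC, 227 for LAMB3, 143 for ITGB4, 130 for ITGA6, 52.0 for COL17A1, 44.6 for DST and 33.5 for LAMA3. There LAMA3, at 30.6 and 36.4, was the lowest of the 7 in both libraries, while ITGB4 (168 and 119) and ITGA6 (134 and 127) overlapped. With the longest transcript as length LAMA3 was again lowest in shSTAU1, at 42.1 and 50.1, but DST (82.4 and 86.1) stood above COL17A1 (63.6 and 65.6). With that length DST had a mean of 89.1 in Ctrl against 87.1 for COL17A1 and the libraries overlapped (86.5 and 91.6 against 87.3 and 86.8), so the order of these genes rests on the length used.

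**Figure D4:**
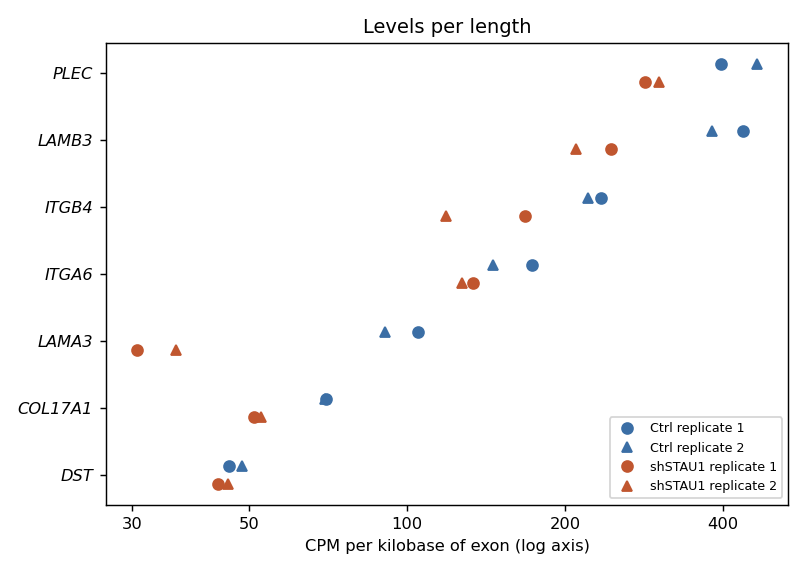
Levels in CPM per kilobase of exon (log axis) in the 4 libraries, with genes ordered by their Ctrl mean. LAMA3 is the fifth gene in Ctrl (105 and 91.0) and the lowest in shSTAU1 (30.6 and 36.4).

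A further 44 genes that act with this structure were listed by role, and 43 of them passed the filter on low counts. Of these, 1 rose (KRT5), 1 fell (ADAM9) and 41 did not pass the threshold, against 1.13% of all tested genes that rose and 1.48% that fell. Their median log2 fold change was -0.10. Without the filter on low counts 0 of them passed in edgeR's test (15 at an unadjusted p under 0.05), and 0 passed without Ctrl replicate 1 or without Ctrl replicate 2 (7 and 10 at an unadjusted p under 0.05). DESeq2 called 12 of them, 8 lower and 4 higher, and 10.1% of all tested genes. Without shSTAU1 replicate 1 there were 14 lower and 4 higher, and without shSTAU1 replicate 2 there were 6 lower and 12 higher. Over all genes the same fits gave 1243 lower and 1537 higher, and 1050 lower and 1153 higher.

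Among 7 partners of the hemidesmosome and laminin-332, KRT5 alone passed in edgeR's test. DESeq2 called 4, of which 2 were lower and 2 higher, against 10.1% of all tested genes. KRT5, a basal keratin to which plectin and dystonin attach, had 3236 and 3387 CPM in Ctrl and 5488 and 4893 CPM in shSTAU1, a direction opposite to that of the 7 genes (log2 fold change 0.65, standard error 0.12, with an adjusted p of 0.0408 in edgeR). It did not pass with library size in place of TMM (adjusted p = 0.0523), nor without the filter (0.0989), without Ctrl replicate 1 (0.490) or without Ctrl replicate 2 (0.201). The following 3 partners did not pass and were picked once their values were known. KRT14, the keratin that pairs with KRT5, had 802 and 559 CPM in Ctrl and 1625 and 901 CPM in shSTAU1 (log2 fold change 0.89, standard error 0.28). COL7A1, the anchoring fibril collagen that binds laminin-332, had 1334 and 1383 CPM in Ctrl and 999 and 1030 CPM in shSTAU1 (log2 fold change -0.42, standard error 0.12). ITGB1, the other beta partner of alpha6, had 530 and 443 CPM in Ctrl and 370 and 331 CPM in shSTAU1 (log2 fold change -0.47, standard error 0.14). Their adjusted p-values in edgeR were 0.112, 0.0849 and 0.0986. In the other 3 partners, CD151, ITGA3 and ERBIN, the groups overlapped. The partners as a whole had a median log2 fold change of -0.11, with 5 of 7 genes below 0.

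Among 7 proteases that can process laminin-332 or collagen XVII, ADAM9 fell and the other 6 did not pass in edgeR's test. DESeq2 called 3, of which 2 were lower and 1 higher, against 10.1% of all tested genes. ADAM9, one of the sheddases reported for collagen XVII, had 1060 and 918 CPM in Ctrl and 580 and 542 CPM in shSTAU1 (log2 fold change -0.82, standard error 0.13, with an adjusted p of 0.0357 in edgeR). It lost the threshold without the filter (adjusted p = 0.0988), without Ctrl replicate 1 (0.490) and without Ctrl replicate 2 (0.0967). The proteases had a median log2 fold change of -0.01. The following 3 did not pass and were picked once their values were known. ADAM10, another sheddase of the same family, had 439 and 349 CPM in Ctrl and 287 and 204 CPM in shSTAU1 (log2 fold change -0.68). TLL1, a relative of BMP1, had 1.87 and 1.68 CPM in Ctrl and 4.48 and 4.05 CPM in shSTAU1 (log2 fold change 1.26). MMP2, a gelatinase, had 54.4 and 54.9 CPM in Ctrl and 78.2 and 72.0 CPM in shSTAU1 (log2 fold change 0.46). The adjusted p-values in edgeR were 0.0893, 0.0683 and 0.0926. In the other 3 proteases, BMP1, MMP14 and ADAM17, the groups overlapped.

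Of the 29 tested genes of the remaining 4 lists, 0 passed the threshold in edgeR's test, against 2.60% of all tested genes. DESeq2 called 5 of them, against 10.1% of all tested genes, and limma-voom called 0, against 2.54%. At an unadjusted p under 0.05 in edgeR's test there were 8 of the 29, against 24.5% of all tested genes. Among the other 5 plakins, with a median log2 fold change of 0.08, the one with most counts was MACF1, a relative of dystonin, with 2482 and 2083 CPM in Ctrl and 1557 and 1156 CPM in shSTAU1 (log2 fold change -0.75, standard error 0.17, with an adjusted p of 0.0631 in edgeR). Of 9 other laminin chains 8 were tested, with a median of -0.36, and LAMC3 was left out with at most 4 counts in any library. The chain with most counts, LAMB1, had 1412 and 1250 CPM in Ctrl and 1222 and 846 CPM in shSTAU1 (log2 fold change -0.36, standard error 0.18, with an adjusted p of 0.264 in edgeR). The other chains ran from -0.91 in LAMB4, at 1.31 and 2.44 CPM in Ctrl, to 0.68 in LAMA4, at 86.4 and 74.5 CPM in Ctrl and 148 and 110 CPM in shSTAU1. LAMA5, the alpha chain of laminins common to many basement membranes, had 764 and 752 CPM in Ctrl and 559 and 428 CPM in shSTAU1, with a log2 fold change of -0.62. These 3 were picked once their values were known.

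Among 10 receptors and kinases that signal with integrin alpha6beta4, 5 were below 0 and 5 above, with a median of 0.00045. The one with most counts was MET, the receptor for hepatocyte growth factor, with 1899 and 1572 CPM in Ctrl and 2085 and 1540 CPM in shSTAU1 (log2 fold change 0.06, standard error 0.17, with an adjusted p of 0.857 in edgeR). Among 6 transcription factors of basal epithelial identity or of its loss, the one with most counts was TP63, a regulator of basal adhesion genes, with 195 and 159 CPM in Ctrl and 260 and 176 CPM in shSTAU1. The groups overlapped (log2 fold change 0.30, standard error 0.20, with an adjusted p of 0.390 in edgeR).

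**Figure D5:**
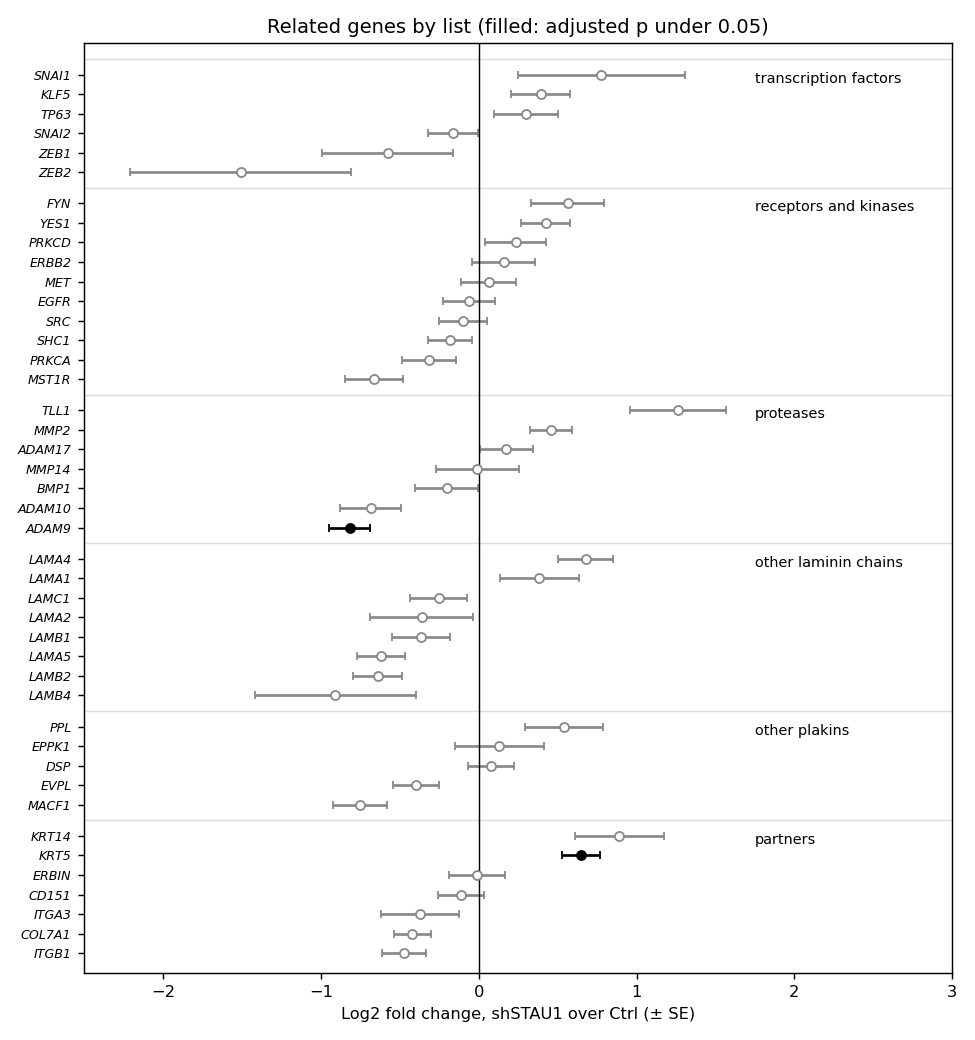
Log2 fold change (shSTAU1 over Ctrl, horizontal axis) with its standard error for the 43 tested related genes, grouped by role. Filled points had an adjusted p under 0.05, which were KRT5 at 0.65 and ADAM9 at -0.82.

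The profile of the 7 genes over the 4 libraries, as the mean of their centred log2 CPM, was 0.35 and 0.29 in Ctrl and -0.29 and -0.34 in shSTAU1. Of 3624 other genes whose mean reached 50 CPM, the 5 nearest to it by Euclidean distance were MPDZ (0.039), NKTR (0.040), MDM4 (0.051), ZNF675 (0.053) and SDHAP1 (0.056). None of these was on the lists above, and SDHAP1 is a pseudogene, on which reads of its parent gene could be counted. MPDZ, the nearest, had 124 and 122 CPM in Ctrl and 81.2 and 79.8 CPM in shSTAU1. LAMA3 itself lay at a distance of 0.95 from the profile, the farthest of the 7, followed by DST at 0.57.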

How the data were processed

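RNA-sequencing libraries from 2 Ctrl and 2 shSTAU1 samples were analysed. The authors deposited a table of whole-number counts for each gene, not normalized. The submitters' processing notes name Partek and hg38. The aligner, counting program, strand setting and annotation are not given in the sources used here. Positions and lengths came from GENCODE 29, which holds 58516 of the identifiers, and promoter windows from RefSeq. Genes that overlap one of the 7 on either strand held at most 0.416% of its counts.

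The main test was that of edgeR 4.0.16 in R 4.3.3 (filterByExpr, TMM, quasi-likelihood test, Benjamini-Hochberg adjustment over 14303 genes, threshold 0.05). Replicates were further apart than counting error allows (25.4 in Ctrl and 61.6 in shSTAU1, as chi-square over its degrees of freedom), and each was counted as 1 sample. The smallest count of the 7 genes was 12600, a counting error of 0.891%. Alternatives were DESeq2 1.42.0, limma-voom (limma 3.58.1), library size, no filter, a threshold of 0.10, the replicate number as a block, a spline correction for transcript length and GC content (99% of tested genes), and leaving out each library, in which the lone library of a group is assumed to vary like the others. The edgeR test (alone, with the block and with the length and GC correction), limma-voom and DESeq2 were tested on simulated data.

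The 7 genes and all lists were chosen with earlier results of these data known. By rule, the genes named were the 7, STAU1, related genes past the threshold, the most abundant gene of a list without one, and the 5 nearest profiles among genes of at least 50 CPM. Other related genes were picked after their values were seen, as stated beside them. One gene of the structure is not reported here.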

Additional observations from a re-analysis of the deposited data

How the results depend on the processing

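The 7 genes were lower in shSTAU1 in each of the 11 alternative fits, except DST after the length and GC correction (0.168, and 0.167 with the replicate block as well). Of 77 fold changes of these genes under alternatives, 55 kept their direction and side of the threshold, 16 gained the threshold, 4 lost it and 2 changed sign. STAU1 lay between -2.598 and -2.577 when any single library was dropped, and it did not pass without Ctrl replicate 1, where 0 genes passed in edgeR's test (1502 at an unadjusted p under 0.05).

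Against 372 genes (211 lower, 161 higher), the counts past the threshold were 1449 with DESeq2, 11 without a filter on low counts, 1585 at an adjusted p under 0.10, and between 0 and 2780 when any single library was dropped. Library size gave 272 lower and 132 higher, and the length and GC correction 150 lower and 158 higher. Against 2 of the 7 genes, 5 passed with DESeq2, 1 without the filter, 5 at 0.10, and 0 to 5 when any single library was dropped. Against 2 of the related genes, 1 passed with library size, 12 with DESeq2, 0 without the filter, 12 at 0.10, and 0 to 18 when any single library was dropped. The causes were not tested.

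Under the replicate block, 4087 genes, 6 of the 7 and 22 related genes passed. Adding the length and GC correction to the replicate block gave 3701, 5 and 18. Neither the labels nor the paper says that the number marks a batch. Same-numbered libraries deviated together, their replicate differences having a correlation of 0.27 over the 14303 tested genes and of 0.59 over the 4786 whose mean log2 CPM was above 5. Depth does not limit the 7 genes, while LAMC3, at 4 counts or fewer, was not tested.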
